A study of Mus musculus with 6 samples.

Results

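The miRNAs described here are 7 mature microRNAs of the imprinted miR-379/410 cluster that are known from studies of synapses and neuronal activity, namely mmu-miR-134-5p, mmu-miR-329-3p, mmu-miR-381-3p, mmu-miR-382-5p, mmu-miR-485-5p, mmu-miR-485-3p and mmu-miR-495-3p (written without the prefix from here on). They were taken by name, from a list drawn up with earlier results of these libraries known, and all 7 were found among the 756 mature miRNAs of the table. They come from 6 precursors, since miR-485-5p and miR-485-3p are both arms of the same hairpin. Small RNA was sequenced from the dorsal striatum, a brain region of habits and movement choice, of C57BL/6N mice aged 7 weeks. The withdrawal group (3 libraries) received nicotine at 0.5 mg/kg on each of 3 days by intraperitoneal injection, and 24 hours after the last dose 3.0 mg/kg of mecamylamine, an antagonist of nicotinic acetylcholine receptors that precipitates withdrawal. The saline group (3 libraries) received neither drug, so nicotine and mecamylamine cannot be told apart. Striata were cut from both groups 1 week after injections ended, so the values describe a late state and not acute withdrawal.

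A miRNA is cut from a hairpin precursor, and one or both of its arms are loaded into Argonaute, where bases 2 to 8 (the seed) pair with target messenger RNAs and repress them. The miR-379/410 cluster lies in the Dlk1-Dio3 domain, is expressed from the maternal chromosome and is most active in brain. In rat hippocampal neurons its transcription is induced by activity through the factor Mef2, and miR-134, miR-329 and miR-381 are needed there for activity-dependent dendritic growth. The data hold no measure of neuronal activity, so the activity dependence is background from earlier work and was not checked here.

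RefSeq (build GRCm38.p6) held the mature sequence of 6 of the 7 miRNAs. They are shown because the seed, in capitals, sets which messenger RNAs each can bind, and the lower-case letters are the rest of the mature strand, 5′ to 3′.
miR-134-5p: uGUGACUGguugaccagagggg
miR-329-3p: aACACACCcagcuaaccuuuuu
miR-381-3p: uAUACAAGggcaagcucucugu
miR-382-5p: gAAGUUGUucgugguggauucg
miR-485-3p: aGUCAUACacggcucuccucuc
miR-495-3p: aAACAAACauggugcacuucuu

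The 6 seeds all differ from each other, so no pair among them is a seed family. Each mature strand is 22 bases long, and all lie on the plus strand of chromosome 12 in the order miR-329-3p (chr12:109713541-109713562), miR-495-3p (chr12:109718795-109718816), miR-381-3p (chr12:109726870-109726891), miR-382-5p (chr12:109733781-109733802), miR-134-5p (chr12:109734145-109734166) and miR-485-3p (chr12:109734946-109734967). These are GRCm38.p6 positions from RefSeq, not positions of the build mm9 named in the submitters' notes. In GENCODE M21, on the same build, the hairpins of miR-382, miR-134 and miR-485 overlap an exon of the long noncoding RNA Mirg.

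Among the other miRNAs of the table with a RefSeq sequence, 2 shared a seed with one of these miRNAs, and 1 was nearly the same over its whole length. The following are shown beside the sequences above to make that plain.
miR-362-3p: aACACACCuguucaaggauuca
miR-12200-5p: aAACAAACcagaggcucacacu
miR-300-3p: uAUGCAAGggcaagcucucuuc

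miR-362-3p, from the X chromosome, has the seed of miR-329-3p, and miR-12200-5p, from chromosome 5, has that of miR-495-3p. miR-300-3p, from the neighbouring hairpin in the same cluster, differs from miR-381-3p by 3 substitutions, A4G, G21U and U22C, with the miR-381-3p base first and positions counted from the 5′ end. The first of these lies in the seed, and the other two are the last bases of the strand. A read shortened at its 3′ end still holds the seed base that differs. How mismatches, and reads that fit both, were handled is not given in the sources used here. Whether reads of miR-381-3p and miR-300-3p were counted for each other is therefore unknown.

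The values are read counts divided by a size factor of each library, called normalized reads below. Within each library all of them were whole multiples of one step. Taking a step as 1 read, totals lay between 44529730 and 53262896 reads in withdrawal libraries and between 40111870 and 50480767 in saline libraries. Neuronal miRNAs were abundant. The 6 listed neuronal markers, miR-124-3p and miR-9-5p among them, summed to between 3025626 and 3094833 normalized reads in withdrawal and between 3085394 and 3110330 in saline. This sum joins markers of opposite direction. miR-9-5p was higher, and miR-138-5p and miR-128-3p lower, in every withdrawal library than in any saline library, while miR-124-3p and miR-137-3p overlapped. miR-218-5p, also in the list, is not described here. Of the markers named as apart, only miR-138-5p passed the test given below. Groups that did not overlap were common, at 27.6% of the 699 miRNAs tested. Of the markers listed for 6 other cell types, all but 1 oligodendrocyte marker were in the table and none was at 0 throughout. The summed erythrocyte markers (5 of 5 in the table) lay between 232541 and 239535 in withdrawal, above the 208206 to 215110 of saline. Likewise, those of choroid plexus and epithelium (13 of 13) lay between 107388 and 108716 in withdrawal, against 100305 to 104214 in saline, and those of endothelium and smooth muscle (4 of 4) between 1305123 and 1339333, against 1271286 to 1298785. The oligodendrocyte sum (4 of 5) was lower, at 107207 to 110571 in withdrawal and 113199 to 119834 in saline, as was that of microglia and leukocytes (6 of 6), at 42915 to 43239 and 44103 to 45733. The striated muscle sum (3 of 3) overlapped, at 6352 to 6591 and 6326 to 6442. Each of these sums can be set by 1 abundant marker, and the directions of the single markers are not given. The sums were not tested and do not show that the markers of a type moved together. The part of these cell types in the results below was not tested, and in bulk tissue fewer cells of a type and less RNA per cell cannot be told apart.

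Across the 6 libraries the 7 miRNAs spanned a wide range of levels. The strands with a known sequence have the same length, but ligation favours some ends over others, and its effect was not measured. The order below is therefore one of reads, and small steps in it may not hold for the molecules in the tissue. miR-381-3p was far above the rest, at 408286 to 439275 normalized reads in the 6 libraries, rank 23 of the 756 by mean. It took 0.983 ± 0.00582% of normalized reads in withdrawal and 0.914 ± 0.00646% in saline (SD, n = 3 each), and 92.0 ± 0.137% and 91.8 ± 0.140% of the summed reads of the 7. The next, miR-485-3p, was 45.97-fold lower by mean, at 9034 to 9544, followed by miR-495-3p at 7707 to 8660 and miR-382-5p at 6331 to 7130. miR-134-5p (4356 to 4681) and miR-329-3p (4308 to 4773) overlapped in both groups and could not be ordered, and miR-485-5p was the lowest at 3645 to 4275. All other neighbours in this order were apart in every library. The summed level of the 7 therefore describes miR-381-3p almost alone and is not used below.

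In withdrawal, miR-485-5p fell and the other 6 did not pass the test, all with small positive fold changes. The test was limma on log2(value + 1) over the 699 miRNAs with at least 10 normalized reads in at least 3 libraries, with Benjamini-Hochberg adjustment over all of them and a threshold of 0.05. All 7 passed that filter on low values. Of the 699, 6.58% passed in either direction and 3.58% were lower, and 1 of 7 is too small a count to set against that share. The 7 had a median log2 fold change (withdrawal over saline) of 0.07, against 0.00 over the 699, and 6 of 7 were positive, against 50.8% of the 699. The groups did not overlap for 5 of the 7 (4 higher and 1 lower in withdrawal), while this held for 27.6% of the 699. The 7 were proposed with results of these libraries known and are encoded side by side, so these shares describe the set and test nothing about it.

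**Figure D1:**
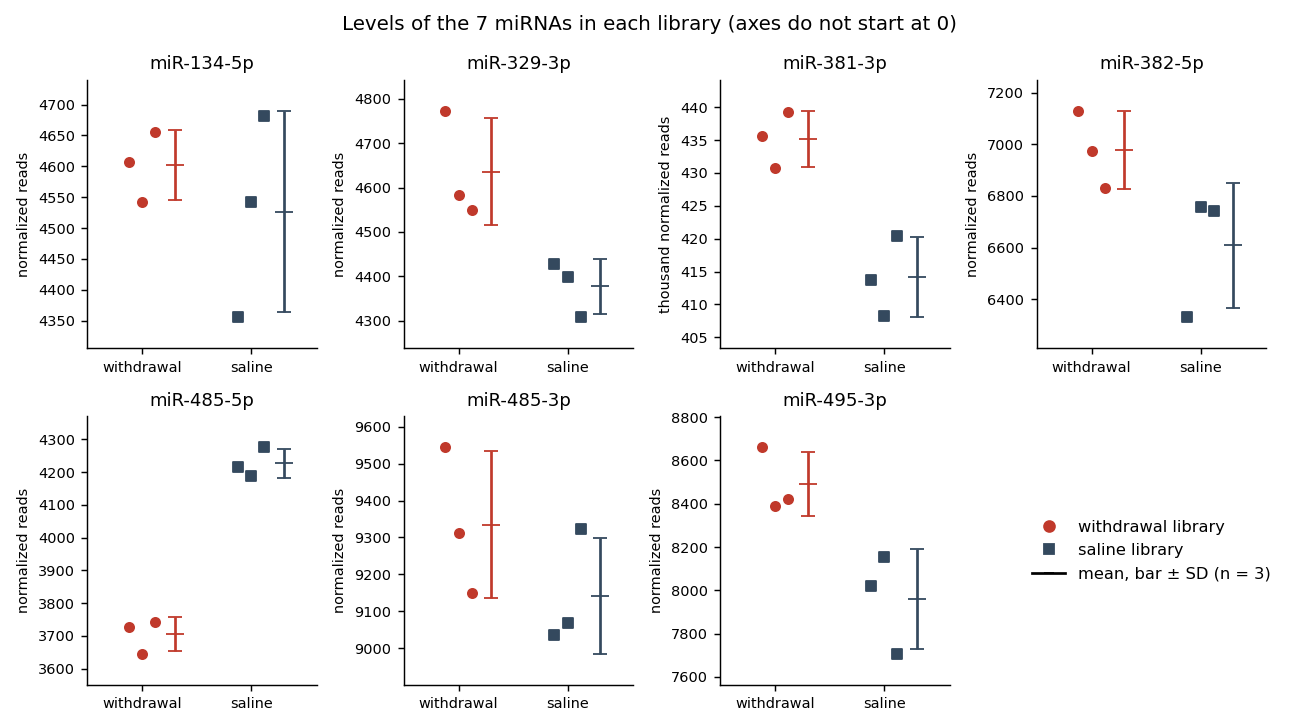
Normalized reads of the 7 miRNAs in the 3 withdrawal libraries (red circles) and the 3 saline libraries (dark squares), with the group mean ± SD beside the points and axes that do not start at 0. The withdrawal libraries of miR-485-5p lie between 3645 and 3744, all below the saline libraries at 4187 to 4275, while the groups overlap for miR-134-5p and miR-485-3p.

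miR-485-5p, which in rat hippocampal neurons is known to repress the synaptic vesicle protein SV2A and to lower spine density, stood at 3728, 3645 and 3744 normalized reads in the withdrawal libraries, against 4216, 4187 and 4275 in the saline libraries. Every withdrawal library was below every saline library, and the gap was wider than the spread within either group. The group means were 3705 ± 52.98 in withdrawal and 4226 ± 45.0 in saline (SD, n = 3 each), a log2 fold change of -0.19 ± 0.03 (SE; limma, adjusted p = 0.00673), or a difference of -12.3% with a 95% interval from -16.7% to -7.66%. It ranked 11 by p among the 699. The call depended on one feature of the test: limma with no trend of variance on level gave an adjusted p of 0.157 for the same difference, and called 0 of the 699 (112 had an unadjusted p under 0.05).

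The partner strand of the same hairpin, miR-485-3p, did not pass the test. It had 9544, 9311 and 9149 normalized reads in withdrawal, against 9034, 9068 and 9322 in saline. The groups overlapped, with saline 3 above the other saline libraries and within the withdrawal range. Its log2 fold change was 0.03 ± 0.03 (limma, adjusted p = 0.630), with a 95% interval from -2.63% to 7.07%, which holds no fall as large as that of miR-485-5p. Without withdrawal 1, its highest library, the value was 0.014.

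miR-134-5p is the founding example of a synaptic miRNA: in rat hippocampal neurons it sits near synapses and represses Limk1, a kinase that lets dendritic spines grow, and it also acts on the translational repressor Pumilio2. It had 4607, 4543 and 4656 normalized reads in withdrawal, against 4356, 4543 and 4681 in saline. The withdrawal libraries all lay inside the saline range. The log2 fold change was 0.02 ± 0.04 (limma, adjusted p = 0.763, 95% interval from -3.80% to 7.52%), and its sign turned to -0.0044 with quantile normalization and to -0.0031 without saline 1. It was 0.016 without withdrawal 3 and 0.049 without saline 3. The interval leaves room for a small difference in either direction. The smallest difference that 3 libraries a group could detect was not worked out.

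miR-382-5p, whose hairpin lies next to that of miR-134 and which has been reported to act on the dopamine D1 receptor in rat nucleus accumbens, had 7130, 6975 and 6830 normalized reads in withdrawal, against 6331, 6756 and 6742 in saline. All withdrawal libraries were above all saline libraries, but the closest pair, withdrawal 3 and saline 2, differed little, and saline 1 was apart from its group. The log2 fold change of 0.08 ± 0.04 did not pass (limma, adjusted p = 0.216, 95% interval from 0.0146% to 11.5%). Without saline 1 it was 0.048 (limma, adjusted p = 0.494).

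The 3 remaining miRNAs, all from 3p arms, were each higher in every withdrawal library than in any saline library, and none passed the test. miR-329-3p, one of the cluster miRNAs needed for dendritic growth in rat neurons, had 4773, 4584 and 4549 normalized reads in withdrawal, against 4427, 4398 and 4308 in saline. Withdrawal 1 was the highest library by some way. Its log2 fold change was 0.08 ± 0.04 (limma, adjusted p = 0.184, 95% interval from 0.390% to 11.6%).

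miR-381-3p, needed for the same growth response in rat neurons, had 435586, 430793 and 439275 normalized reads in withdrawal, against 413735, 408286 and 420387 in saline. The spread within each group was small, at 0.977% and 1.46% of the mean in withdrawal and saline. The log2 fold change was 0.07 ± 0.03 (limma, adjusted p = 0.122, 95% interval from 1.12% to 9.22%). With the libraries scaled to equal totals it stood at 0.10 and passed (limma, adjusted p = 0.0185).

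miR-495-3p, studied in rat nucleus accumbens for its action on Bdnf and on the immediate early gene Arc, had 8660, 8390 and 8423 normalized reads in withdrawal, against 8018, 8154 and 7707 in saline. Saline 3 was the lowest library and withdrawal 1 the highest. Its log2 fold change of 0.09 ± 0.03 was the largest positive one of the 7 (limma, adjusted p = 0.122, 95% interval from 1.48% to 12.2%). With equal totals it stood at 0.13 and passed (limma, adjusted p = 0.0408), so the calls for miR-381-3p and miR-495-3p changed with the scaling of the libraries. Of all 699, 46 were called with the deposited scaling, 45.7% of them higher in withdrawal. With equal totals 61 were called, 75.4% of them higher, and the median log2 fold change of the 699 moved to 0.035.

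Depth differed widely among the 7. In steps, they were backed by between 3723 (miR-485-5p in saline 1) and 526518 (miR-381-3p in withdrawal 3) per library. If a step is 1 read, counting alone gives an error of 1.55% for miR-485-5p and 0.149% for miR-381-3p. Such errors cover counting only, as no molecular identifiers were counted. The spread between libraries of a group was 1.43% in withdrawal and 1.07% in saline for miR-485-5p, about the counting error. For miR-134-5p it was 1.24% and 3.61%, and for miR-382-5p 2.15% and 3.65%, against counting errors of 1.44% and 1.18%. For these and for miR-381-3p the spread within saline was thus above the counting error. The same held for miR-495-3p (2.88% against 1.07%) and miR-485-3p (1.72% against 1.01%), but not for miR-329-3p (1.42% against 1.45%).

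The near-identical pair of miR-381-3p and miR-300-3p was compared within each library, where the size factor cancels. miR-300-3p had 328491, 335112 and 331787 normalized reads in withdrawal, against 332181, 322941 and 338078 in saline, with the groups overlapping and a log2 fold change of 0.00 ± 0.03 (limma, adjusted p = 0.966). The ratio of miR-381-3p to miR-300-3p was 1.33, 1.29 and 1.32 in withdrawal, against 1.25, 1.26 and 1.24 in saline, so it was higher in every withdrawal library. This ratio was not tested, and such a separation is common. Among ratios of the 5p to the 3p arm, groups did not overlap in 27.1% of 203 precursors. The sum of miR-381-3p and miR-300-3p was 767015 ± 3622 in withdrawal and 745202 ± 13633 in saline (SD, n = 3 each). miR-362-3p, which shares the seed of miR-329-3p, had 648, 641 and 652 normalized reads in withdrawal, against 624, 625 and 595 in saline. All withdrawal libraries were above all saline libraries, as for miR-329-3p, at a log2 fold change of 0.07 ± 0.06 that did not pass (limma, adjusted p = 0.473). miR-12200-5p was near the lowest values listed, at 7.51 to 8.96 in withdrawal and up to 14.7 in saline, and was not tested.

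The partner arms of the other 5 precursors gave no called difference. miR-329-5p, the more abundant arm of its hairpin, had 5277, 5320 and 5525 normalized reads in withdrawal, against 5651, 5449 and 5437 in saline (log2 fold change -0.04 ± 0.04, limma, adjusted p = 0.589). miR-382-3p had 3290, 3202 and 3314 in withdrawal, against 3207, 3281 and 3107 in saline (0.03 ± 0.04, adjusted p = 0.686). The others were low: miR-134-3p averaged 559 ± 28.7 in withdrawal and 556 ± 23.0 in saline, miR-381-5p 219 ± 13.2 and 221 ± 22.8, and miR-495-5p 76.5 ± 18.2 and 85.5 ± 22.1 (SD, n = 3 each). At these levels the intervals were wide, from -0.60 to 0.29 on the log2 scale for miR-495-5p.

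**Figure D2:**
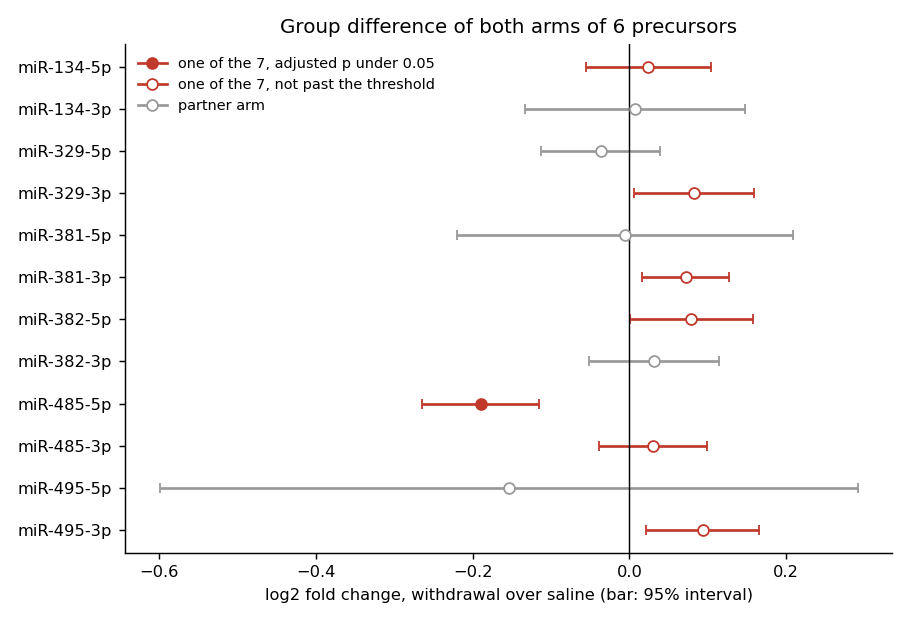
Log2 fold change (withdrawal over saline) with its 95% interval from limma for both arms of the 6 precursors, in red for the 7 miRNAs and grey for their partner arms; a filled point passed an adjusted p of 0.05. miR-485-5p at -0.19 is the one filled point, and miR-485-3p from the same hairpin stands at 0.03.

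Both arms of a hairpin come from the same precursor, and in their ratio within a library the size factor cancels. The ratio of miR-485-5p to miR-485-3p was 0.391, 0.392 and 0.409 in withdrawal, against 0.467, 0.462 and 0.459 in saline, with no overlap. The log2 ratio was lower by -0.22 ± 0.04, the second smallest p of 203 precursors (limma on log2((5p + 1)/(3p + 1)), unadjusted p = 0.00216), but it did not pass over all of them (limma, adjusted p = 0.129). By limma none of the 203 passed (0%), 33 had an unadjusted p under 0.05, and the groups did not overlap in 27.1%. So the test of the difference between the 2 arms of miR-485 missed the threshold. With a trend of variance on level the adjusted p for miR-485 was 0.0559, and over all settings tried it lay between 0.0559 and 0.334, with a log2 difference from -0.24 to -0.21.

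For miR-329 the ratio of the 5p to the 3p arm was 1.11, 1.16 and 1.21 in withdrawal, against 1.28, 1.24 and 1.26 in saline, also with no overlap, at a log2 difference of -0.12 ± 0.05 (limma, adjusted p = 0.327). The ratios of the other precursors overlapped between groups. The 5p arm of miR-134 exceeded the 3p arm by 8.24 ± 0.407-fold in withdrawal and 8.14 ± 0.499-fold in saline, and that of miR-382 by 2.14 ± 0.0648-fold and 2.07 ± 0.0981-fold (SD, n = 3 each). For miR-381 and miR-495 nearly all reads came from the 3p arm, which exceeded the 5p arm by a mean of 1981-fold and 114-fold in withdrawal and of 1883-fold and 96.1-fold in saline. The direction of the small miR-134 difference (log2 0.02 ± 0.07) turned to -0.023 without withdrawal 1 and to -0.032 without saline 1.

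**Figure D3:**
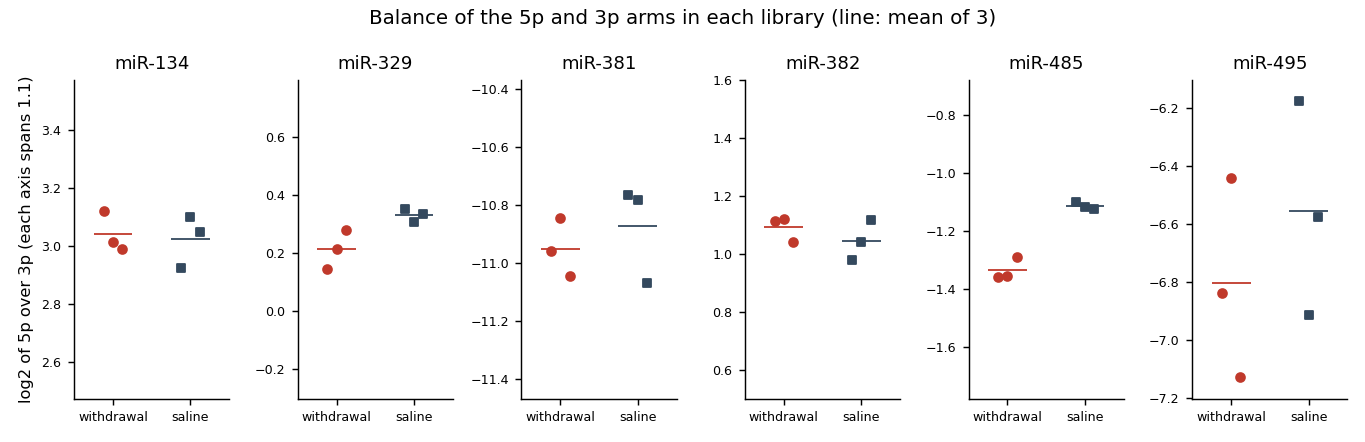
Log2 ratio of the 5p arm to the 3p arm in each withdrawal library (red circles) and each saline library (dark squares) for the 6 precursors, with a line at each group mean; every axis spans the same log2 range. The withdrawal points lie below all saline points for miR-485 and miR-329 and overlap with them for the other precursors.

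The rest of the cluster gives the setting for these values. The table held 66 arms from 35 of the 39 precursors listed for the cluster, and all 66 were tested. In withdrawal 2 of them fell, miR-485-5p and miR-411-5p, none rose, and 64 did not pass, where over all 699 miRNAs 3.58% were called lower and 3% higher. The share called among the 66 was thus no higher than among all tested miRNAs. The 66 arms took 6.00 ± 0.0609% of normalized reads in withdrawal and 5.91 ± 0.00218% in saline (SD, n = 3 each). Their summed normalized reads were not higher in withdrawal, with a difference of -0.718% between the group means. The normalized total was lower in every withdrawal library than in any saline library, so the share and the sum go in opposite directions. The 59 arms other than the 7 had a median log2 fold change of 0.00, as did all 699, with 30 of the 59 positive. The groups did not overlap for 4 of the 59 in the higher and 10 in the lower direction, against 13% and 14.6% of all tested miRNAs. Whether the 7 differ from the other arms was not tested.

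Of the named arms, miR-411-5p, a 5p arm from the miR-379 end and the most abundant of the cluster, had 661031, 663909 and 677731 normalized reads in withdrawal, against 719101, 701728 and 718005 in saline. Its log2 fold change was -0.09 ± 0.03 (limma, adjusted p = 0.0491), a marginal call that passed in 8 of 17 other settings. It was lost without any one of withdrawal 1, withdrawal 2 and the 3 saline libraries (limma, adjusted p from 0.113 to 0.199). miR-410-3p, at the far end of the cluster, and miR-300-3p were the next most abundant arms besides miR-381-3p. miR-410-3p averaged 568843 ± 15757 in withdrawal and 553179 ± 4842 in saline (0.04 ± 0.03, limma, adjusted p = 0.437). Among arms other than the 7, the next smallest p-values belonged to miR-667-3p (-0.12 ± 0.04, adjusted p = 0.0762) and miR-376a-5p (-0.21 ± 0.07, adjusted p = 0.0826), both lower in every withdrawal library and neither past the threshold.

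**Figure D4:**
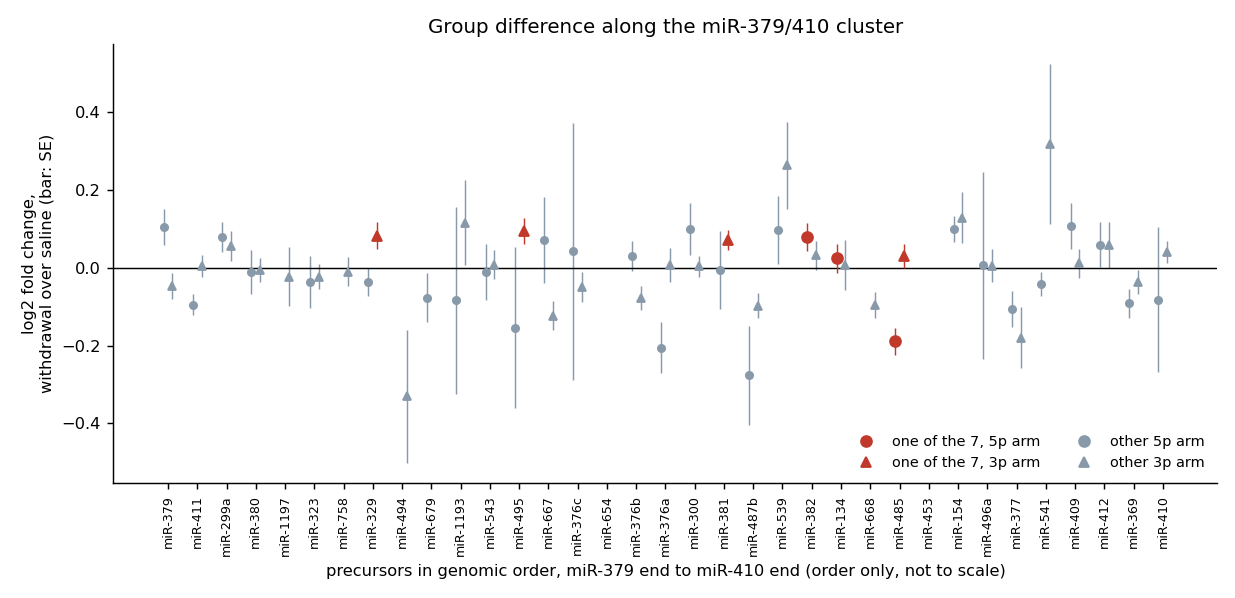
Log2 fold change (withdrawal over saline) ± SE of 61 arms of the cluster, placed by the order of their precursors in RefSeq, with 5p arms as circles, 3p arms as triangles and the 7 miRNAs in red; miR-679-3p, listed at 0 in 1 library, and 4 arms with no RefSeq position are left out, and a precursor with no point had no arm in the table. Positive and negative values are mixed along the cluster, and miR-485-5p at -0.19 lies between neighbours closer to 0. It is not the lowest point: miR-494-3p (-0.33), miR-487b-5p (-0.28) and miR-376a-5p (-0.21) lie below it, though none of them passed the test.

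Synaptic miRNAs encoded elsewhere were read from the same fit. Of 16 in the list, including miR-132, miR-212, miR-124 and miR-137, 2 fell, none rose and 14 did not pass, with a median log2 fold change of -0.01. Over all 699 miRNAs 6.58% were called, 3.58% lower, and 2 of 16 is too small a count to set against that share. miR-138-5p, which acts on the depalmitoylating enzyme Lypla1 and limits spine size in rat neurons, had 451623, 429260 and 387124 normalized reads in withdrawal, against 522601, 499649 and 479331 in saline (-0.25 ± 0.05, limma, adjusted p = 0.00934). miR-92a-3p, which acts on AMPA receptor subunits in homeostatic scaling in rat neurons, averaged 69293 ± 824 in withdrawal and 75088 ± 645 in saline (SD, n = 3 each), a log2 fold change of -0.12 ± 0.03 (limma, adjusted p = 0.0156). Without saline 2 miR-138-5p did not pass, at a fold change of like size (-0.25, limma, adjusted p = 0.0687). miR-92a-3p was lost in 4 of the 6 fits that left out a library, with limma adjusted p of 0.0515 without withdrawal 1, 0.106 without withdrawal 2, 0.0764 without saline 2 and 0.0541 without saline 3. Its fold change in these 4 stayed between -0.12 and -0.11 on the log2 scale. miR-485-5p passed in each of the 6 such fits, but narrowly in some. Its limma adjusted p was 0.0485 without saline 2 and 0.0403 without withdrawal 2. The most abundant of the list, miR-9-5p, miR-191-5p and miR-128-3p, stood at 0.09 ± 0.03, 0.03 ± 0.03 and -0.13 ± 0.04 (limma, adjusted p = 0.156, 0.587 and 0.0543).

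To see which miRNAs had the most similar pattern over the 6 libraries, each log2 value was centred on the mean of its miRNA, and the root mean square difference was taken to each of the 503 other miRNAs with a mean of at least 100 normalized reads. miR-329-3p and miR-495-3p were each other's nearest, at 0.018 on the log2 scale, against medians of 0.081 and 0.084 over the 503. A nearest distance is the smallest of 503, so it lies below the median for any miRNA. The ratio of miR-329-3p to miR-495-3p within a library was 0.551, 0.546 and 0.540 in withdrawal, against 0.552, 0.539 and 0.559 in saline, with overlapping groups. Its narrow range follows from picking the pair by this distance and is no further observation. The nearest of the other 5 were not in the cluster, which gave only 66 of the 756 miRNAs of the table. miR-485-5p was nearest to miR-22-3p (0.016, against a median of 0.113), an abundant miRNA with a log2 fold change of -0.18 ± 0.03 (limma, adjusted p = 0.00673), and its closest among the 7, miR-134-5p, came at rank 233 of 503. The nearest of miR-134-5p was miR-106b-3p (0.020), that of miR-381-3p was miR-345-3p (0.014), that of miR-382-5p was miR-370-5p (0.023) and that of miR-485-3p was miR-25-3p (0.0075). These distances describe 6 libraries that share their size factors, and carry no test.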

How the data were processed

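The deposited values are signal: reads per miRNA that the authors scaled by one factor per library. DESeq2 and the build mm9 appear in the submitters' processing notes, without version. Which aligner, annotation and filters were used, and how reads fitting several miRNAs were handled, was not given in the sources used here. Per the labels' protocols, RNA came from Trizol extraction and libraries from a TruSeq kit for small RNA. Each library was taken as 1 mouse, which the labels do not state for each. Otherwise the p-values reflect only the spread between these samples.

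In every library 100% of values were whole numbers of one step, within 0.01 of a step, and the smallest was 4 or 5 steps. They were not shown to be single reads, so no count test was run. limma 3.58.1 in R 4.3.3 was run on log2(value + 1), two-sided and with a variance trend on level, for miRNAs of at least 10 in at least 3 libraries. The fold change of low miRNAs is understated on this scale. Arm ratios were fitted without the trend. The code was tested on simulated data. Within groups, libraries were no copies of each other (chi-square over its degrees of freedom of at least 22.9). Named are the 7, their partner arms, related sequences, the nearest patterns, and of each list those past the threshold and the 3 most abundant, plus the 3 cluster arms with the smallest p. The members and lists were chosen with earlier results of these data known. Tables were made with pandas 2.3.3 and numpy 2.4.6 under Python 3.11.15, and plots with matplotlib 3.10.9.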

Additional observations from a re-analysis of the deposited data

How the results depend on the processing

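The fall of miR-485-5p kept its direction in all 17 other settings and passed in 16, from -0.20 to -0.16 on the log2 scale (limma, adjusted p from 0.00143 to 0.157), the exception being limma without the trend. Among the 16, the fit without saline 2 came closest to the threshold (limma, adjusted p = 0.0485). Without the trend limma called 0 of the 7, 0 of the 66 cluster arms, 0 of the 16 synaptic miRNAs and 0 of all 699 (2, 6, 3 and 112 had an unadjusted p under 0.05), and the cause was not tested. With equal library totals 3 of the 7 and 4 cluster arms passed, and with quantile normalization 22 of the 699, where the cause was not tested. A pseudocount of 5 and no filter on low values each left 1 cluster arm. In a fit with a replicate block by library number, 106 of the 699, 3 of the 7 (miR-381-3p and miR-495-3p, limma, adjusted p = 0.0297 and 0.0395, besides miR-485-5p), 14 cluster arms and 4 synaptic miRNAs passed. Same-numbered libraries deviated together with r of -0.07, 0.09 and 0.04, and 3 of 6 libraries correlated best with their own number, so the numbers were not taken as pairs.

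Leaving out one library gave 1 of the 7 each time. It gave from 13 to 58 of all miRNAs (13 without saline 2, 21 without withdrawal 2, 22 without saline 3), from 1 to 4 cluster arms (1 without withdrawal 2, saline 2 or saline 3, and 4 without withdrawal 3), from 0 to 3 synaptic miRNAs (0 by limma without saline 2, where 6 had an unadjusted p under 0.05, and 1 without withdrawal 1, withdrawal 2 or saline 3), and from 0 to 1 arm ratios, the 1 being miR-6990 without withdrawal 3. Reversed were miR-134-5p, at -0.0044 with quantile normalization and -0.0031 without saline 1 (up to 0.049 without saline 3), and the miR-134 arm ratio, at -0.023 without withdrawal 1 and -0.032 without saline 1 (up to 0.055 without saline 2). Depth limits the partner arms under 100 normalized reads. The planned count tests were not run, since the steps were not shown to be single reads.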
